A study of Mus musculus with 12 samples.

Results

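The RNA levels of 8 genes of fat handling, classical targets of the peroxisome proliferator-activated receptors (PPARs), were examined in mammary tumors of mice fed a retinoid X receptor (RXR) agonist. The genes were taken by symbol from a list of such targets and are Angptl4, Pdk4, Cpt1a, Plin2, Cd36, Acadm, Acadvl and Fabp3. They are 8 of the 54532 genes in the tables, and all 8 were among the 15504 genes that passed a filter on low counts. Poly(A) RNA was sequenced from 12 mammary tumors of MMTV-Neu mice, with 4 tumors in each group. The control group received diet without an agonist, and the other groups received MSU-42011 or bexarotene at the same dose of 100 mg/kg diet. Feeding lasted 10 days. The mice were female and had established tumors when feeding began. The ages of the mice are not given in the sources used here. All groups carry the MMTV-Neu transgene, in which the mouse mammary tumor virus promoter drives the Neu oncogene mainly in mammary epithelium. The tumors were sequenced as whole tissue, so each value mixes carcinoma cells with fat, vessel and immune cells. Fewer cells of a type and less RNA per cell cannot be told apart in such samples.

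PPARs are nuclear receptors that sense fatty acids and their derivatives, and each binds DNA as a dimer with RXR. The PPAR-RXR dimer is permissive, meaning that a ligand of either partner can switch on its targets, which is why these genes are a natural readout of an RXR agonist. Their products cover successive steps of fat use. Cd36 takes fatty acids up at the cell surface, and Fabp3 carries them in the cytosol. Plin2 coats the lipid droplets in which they are stored. Cpt1a commits them to the mitochondrion, where Acadvl and Acadm start the oxidation of very long and medium chains. Pdk4 turns down the use of pyruvate by the mitochondrion, and Angptl4 is a secreted inhibitor of lipoprotein lipase.

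The receptor dimer recognizes a direct repeat of AGGTCA with 1 base between the repeats. Promoters of 300 bases around the start site were available for 7 of the 8 genes from RefSeq (GRCm38.p6), all but Angptl4. The full repeat AGGTCANAGGTCA was found on neither strand of these 7 promoters, and in 0.0396% of the 32851 promoters of the table. A looser form, AGGNCANAGGNCA, was also in 0 of 7 and in 0.381% of all promoters. The single unit AGGTCA was found in 5 of 7, those of Acadm, Acadvl, Cd36, Cpt1a and Plin2, against 16.3% of all promoters. The sequences around this unit are shown because this unit, and not the full repeat, is what was found in these promoters. Each is read 5′ to 3′ on the strand of the gene, and the capitals mark the unit, written TGACCT where it lies on the opposite strand.
Acadm, chr3:153944860-153944893, minus strand: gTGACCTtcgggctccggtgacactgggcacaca
Acadvl, chr11:70015483-70015542, minus strand: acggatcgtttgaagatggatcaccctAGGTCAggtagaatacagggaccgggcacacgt
Cd36, chr5:17836092-17836146, minus strand: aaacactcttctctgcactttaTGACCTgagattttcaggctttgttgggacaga
Cpt1a, chr19:3323180-3323239, plus strand: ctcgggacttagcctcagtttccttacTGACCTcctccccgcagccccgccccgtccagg
Plin2, chr4:86670245-86670304, minus strand: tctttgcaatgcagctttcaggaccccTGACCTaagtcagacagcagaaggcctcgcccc
The unit began 249 bases before the start site in Acadm, 228 in Cd36, 218 in Plin2, 94 in Cpt1a and 87 in Acadvl. The Cd36 start site used here is an internal one, as the listed gene spans chr5:17781690-17888801 on the minus strand. A second stretch of the Cd36 promoter matched 10 of the 12 fixed bases of the full repeat, beginning 63 bases before the start site, and is shown as the closest match outside those units, with the matched stretch in capitals.
Cd36, chr5:17835923-17835982, minus strand: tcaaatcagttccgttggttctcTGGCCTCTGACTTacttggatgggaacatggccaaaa
The best stretch in Plin2 also matched 10 of 12 and contained the unit shown above, and 3.86% of all promoters held a match at least as close. These are matches of letters within 300 bases and say nothing about binding, and elements outside this window were not searched.

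The total count of a tumor ran from 16583413 to 25925027, with similar ranges in the 3 groups. The 9 luminal epithelial and tumor markers, among them Erbb2, Krt8, Krt18 and Epcam, summed to between 3338 and 6918 normalized CPM (CPM, the count relative to the TMM-scaled library), which fits mammary tumor tissue, although Krt19 was at 0 in 2 tumors. Replicate 1 of the bexarotene group stood apart. It lay at 115 on a first principal component holding 33.6% of the variance, with the other 11 tumors between -34.2 and 16.2. Its 11 macrophage markers summed to 2405 normalized CPM against 296 to 861 elsewhere, its 10 endothelial markers to 521 against 97.3 to 258, and its luminal markers to 3338 against at least 5078. This tumor is kept below, and values without it are given for the 8 targets where they move most.

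The 8 targets spanned the whole range of expression in these tumors. On the authors' FPKM scale, which divides by gene length, Plin2 had a mean of 838 FPKM and stood above 99.2% of the tested genes. Cd36 followed with a mean of 270 FPKM, then Acadm with 88.3 and Acadvl with 47.9. Angptl4 with a mean of 17.6 FPKM and Cpt1a with 9.27 were in the middle of the range. Pdk4 with 2.001 FPKM and Fabp3 with 0.809 FPKM were near the bottom, Fabp3 above 12.05% of the tested genes. Plin2 was above Cd36, Acadm above Acadvl and Cpt1a above Pdk4 in 12 of 12 tumors. Angptl4 was above Cpt1a in only 6 of 12, so these neighbours were not separated, and Pdk4 was above Fabp3 in 9 of 12. The order of neighbours depends on the length used. The FPKM values imply lengths shorter than those the table lists for 6 of the 8 genes, such as 794 against 3913 bases for Acadm and 861 against 3512 for Plin2. With the listed lengths Plin2 was above Cd36 in 8 of 12 tumors and Acadm above Acadvl in 3 of 12, while Cpt1a stayed above Pdk4 in 12 of 12.

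The targets also differed widely in how steady they were between tumors. The acyl-CoA dehydrogenases were the steadiest, with the highest tumor at 1.63 times the lowest for Acadm and 1.86 times for Acadvl. Plin2 spanned 2.28-fold, Cpt1a 4.01-fold, Cd36 9.66-fold, Fabp3 15.1-fold, Angptl4 36.8-fold and Pdk4 42.9-fold. Within diet groups, after allowing for counting error, the coefficient of variation edgeR fitted for Angptl4 was 0.981, above that of 98.7% of tested genes. It was 0.841 for Pdk4, 0.703 for Fabp3 and 0.554 for Cd36, and 0.167 for Acadm, above that of 23.7% of tested genes. The secreted inhibitor and the regulatory kinase thus varied most between tumors on the same diet, and the oxidation enzymes least.

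**Figure D1:**
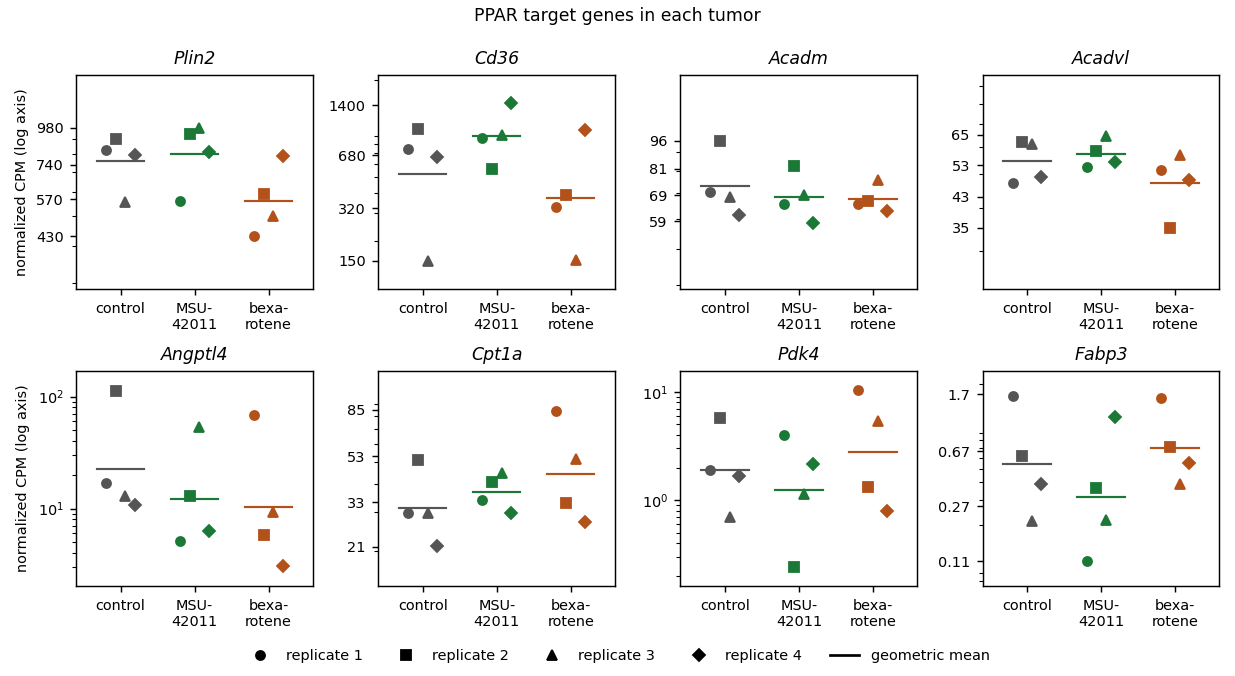
Normalized CPM (log axis, a separate scale for each gene) of the 8 PPAR targets in each tumor by diet. Points are tumors, with a symbol for each replicate number, and lines are geometric means of 4 tumors. The groups overlap in all 8 panels, and Angptl4 and Pdk4 spread most within groups.

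None of the 8 targets passed the test in a comparison of diets. EdgeR's quasi-likelihood test with Benjamini-Hochberg adjustment over all genes called 0 of 8 for MSU-42011 against control, 0 of 8 for bexarotene against control, 0 of 8 for MSU-42011 against bexarotene and 0 of 8 among the 3 groups. The background was the same, since 0% of the 15504 genes were called in each of these. At an unadjusted p under 0.05, 0 of 8 targets passed for MSU-42011 against control, where 1.99% of all genes did, and 0 of 8 for bexarotene against control, where 6.44% did. For MSU-42011 against bexarotene 1 of 8 passed, Plin2, where 3.95% of genes did, and among the 3 groups 0 of 8, where 4.24% did. DESeq2 also called none of the 8, and called 1, 6, 25 and 5 of all genes in the 4 tests in the order above. The groups overlapped for 8 of 8 targets in each comparison, whereas they were separated for 1.97%, 2.03% and 1.17% of all genes in the 3 comparisons of diets. The comparisons with control share the same 4 control tumors and are not independent.

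The median log2 fold change of the 8 targets was -0.02 for MSU-42011 against control, with 4 of 8 higher, beside 0.0016 over all tested genes. It was -0.16 for bexarotene against control, with 3 of 8 higher, beside 0.03 over all genes. For MSU-42011 against bexarotene it was -0.08, with 4 of 8 higher, beside -0.02 over all genes. These medians were not stable to single tumors. Without control replicate 2 the first was 0.28 and the second 0.08, and without bexarotene replicate 1 the second was -0.27 and the third 0.16.

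Among the genes of uptake and storage, Plin2, the droplet coat protein, came closest to a difference. Its level was 829, 903, 559 and 797 normalized CPM in the control tumors, replicates 1 to 4. In the MSU-42011 tumors it was 563, 935, 979 and 818, and in the bexarotene tumors 430, 590, 499 and 789. All 4 bexarotene tumors were below every control tumor but replicate 3, and 3 MSU-42011 tumors were above all bexarotene tumors. The group means were 772 ± 149, 824 ± 187 and 577 ± 156 (SD, n = 4) for control, MSU-42011 and bexarotene. The log2 fold change of MSU-42011 against bexarotene was 0.51 (SE 0.23, 95% interval 0.02 to 1.01). Plin2 ranked 508 of 15504 genes in that comparison, with an edgeR adjusted p of 0.997, and an exact two-sided permutation test gave p = 0.114. Bexarotene against control gave -0.42 (SE 0.23, edgeR adjusted p = 0.827), and MSU-42011 against control gave 0.09 (SE 0.23, edgeR adjusted p = 1.00). The higher level with MSU-42011 than with bexarotene was 0.40 without replicate 1 of the bexarotene group.

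Cd36, the fatty acid translocase, was at 742, 998, 150 and 670 normalized CPM in the control tumors. It was at 868, 557, 909 and 1445 in the MSU-42011 tumors and at 324, 385, 153 and 985 in the bexarotene tumors. The lowest values, in control replicate 3 and bexarotene replicate 3, were almost equal, and no diet had all its tumors high or low. MSU-42011 against bexarotene had a log2 fold change of 1.03 (SE 0.58, 95% interval -0.24 to 2.30), about 2.05-fold, with an exact permutation p = 0.114. The value was 0.56 (SE 0.58) for MSU-42011 against control and -0.47 (SE 0.58) for bexarotene against control, with edgeR adjusted p of 1.00 and 0.932. Leaving out single tumors moved the former between 0.23 (control replicate 3) and 0.85 (control replicate 2), and the latter between -1.16 (bexarotene replicate 4) and -0.18 (control replicate 2). Without bexarotene replicate 4 the difference between the agonists was 1.73, and without bexarotene replicate 3 it was 0.74.

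Fabp3, the heart and muscle type fatty acid binding protein, was close to the limit of detection. Its raw counts were 28, 13, 4 and 9 in the control tumors, 2, 6, 4 and 28 in the MSU-42011 tumors and 43, 15, 8 and 9 in the bexarotene tumors. The value of 2 counts is below the floor of 3 counts, which cover counting error only. The highest levels, 1.66 normalized CPM in control replicate 1 and 1.59 in bexarotene replicate 1, were in the tumors with the most skeletal muscle RNA. Their 11 muscle markers summed to 165 and 316 normalized CPM, against 8.69 to 17.1 in the other 10 tumors. The part of muscle RNA in the level of Fabp3 was not tested, and MSU-42011 replicate 4 had 1.17 normalized CPM of Fabp3 with a muscle sum of 9.97. The log2 fold change was -0.56 (SE 0.77) for MSU-42011 against control and 0.21 (SE 0.75) for bexarotene against control. These became 0.23 without control replicate 1 and -0.36 without bexarotene replicate 1. In addition, 19.6% of the exonic bases of Fabp3 overlap genes on the opposite strand (Gm10570 and Zcchc17), and the strand setting of the counting is not given in the sources used here.

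Cpt1a, the rate-limiting transferase of mitochondrial fatty acid entry, was at 29.5, 50.8, 29.6 and 21.1 normalized CPM in the control tumors. It was at 33.8, 40.7, 44.4 and 29.7 in the MSU-42011 tumors and at 84.5, 32.8, 51.6 and 26.98 in the bexarotene tumors. Bexarotene replicates 1 and 3 were above all control tumors, and bexarotene replicate 4 was below 3 of them. Bexarotene against control had a log2 fold change of 0.58 (SE 0.34, 95% interval -0.16 to 1.33, edgeR adjusted p = 0.855), with an exact permutation p = 0.286. Without bexarotene replicate 1, the tumor that stood apart, it was 0.18. MSU-42011 against control gave 0.18 (SE 0.34), and MSU-42011 against bexarotene gave -0.40 (SE 0.34), or -0.0016 without bexarotene replicate 1.

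The dehydrogenases of beta-oxidation had small estimates in each comparison, with narrow intervals. Acadm, which acts on medium chains, was at 70.4, 95.7, 68.4 and 61.3 normalized CPM in the control tumors, 65.4, 82.6, 69.4 and 58.6 with MSU-42011 and 65.5, 66.8, 75.8 and 62.8 with bexarotene. The groups covered nearly the same range, apart from control replicate 2. Its log2 fold change was -0.10 for MSU-42011 (95% interval -0.42 to 0.22) and -0.13 for bexarotene (-0.44 to 0.19) against control. Between the agonists it was 0.03 (-0.29 to 0.34), so changes beyond 1.27-fold higher with MSU-42011 or 0.817-fold of the bexarotene level lay outside the interval. Acadvl, the very long chain enzyme, was at 47.2, 61.9, 61.0 and 49.2 normalized CPM in the control tumors, 52.4, 58.2, 64.7 and 54.4 with MSU-42011 and 51.4, 34.9, 56.8 and 48.1 with bexarotene. Bexarotene replicate 2 was the lowest of the 12. Its log2 fold change was 0.07 (SE 0.15) for MSU-42011 against control, -0.20 (SE 0.15) for bexarotene against control and 0.26 (95% interval -0.06 to 0.59) between the agonists, with an exact permutation p = 0.114. Without bexarotene replicate 2 the last value was 0.14. Acadvl shares 42.9% of its exonic bases with Dvl2 on the opposite strand, and without a stated strand setting reads of these genes may not be told apart.

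Pdk4, the kinase that inhibits pyruvate dehydrogenase and so spares glucose, was at 1.90, 5.73, 0.69 and 1.68 normalized CPM in the control tumors. It was at 3.96, 0.24, 1.14 and 2.14 in the MSU-42011 tumors and at 10.4, 1.34, 5.38 and 0.80 in the bexarotene tumors. Each group held tumors with at least 8.24 times the level of others, and the lowest, MSU-42011 replicate 2, had 4 counts. Bexarotene against control had a log2 fold change of 0.84 (SE 0.89, 95% interval -1.08 to 2.77), which was 0.0049 without bexarotene replicate 1. MSU-42011 against control gave -0.42 (SE 0.90) and turned to 0.39 without control replicate 2. The agonists differed by -1.26 (SE 0.90, 95% interval -3.21 to 0.69), with an exact permutation p = 0.371, and by -0.42 without bexarotene replicate 1.

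Angptl4, the lipoprotein lipase inhibitor, is a strongly inducible PPAR target in many cell types. It was at 17.0, 113, 12.9 and 10.8 normalized CPM in the control tumors, 5.11, 12.97, 53.1 and 6.29 with MSU-42011 and 69.0, 5.82, 9.30 and 3.07 with bexarotene. Each diet held 1 tumor far above the other 3, namely control replicate 2, MSU-42011 replicate 3 and bexarotene replicate 1. The other 3 bexarotene tumors were below all 4 controls. The log2 fold change was -0.99 (SE 1.09) for MSU-42011 against control and -0.81 (SE 1.08) for bexarotene against control. Both turned positive without control replicate 2, to 0.51 and 0.69, and bexarotene against control was -2.65 without bexarotene replicate 1. The agonists differed by -0.18 (SE 1.08, 95% interval -2.53 to 2.18), so differences of several fold in either direction remained within the interval. Without bexarotene replicate 1 this value reversed to 1.67.

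**Figure D2:**
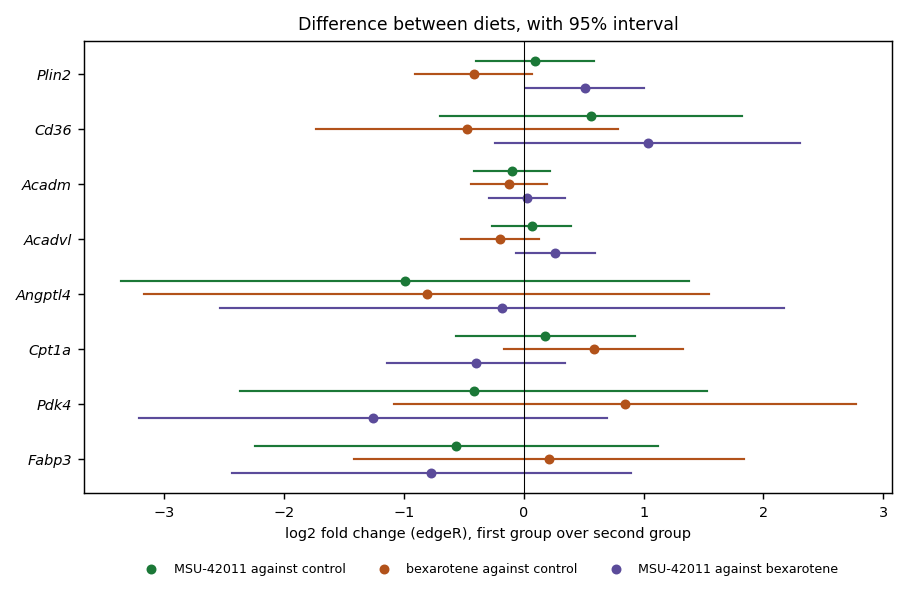
Log2 fold changes of the 8 PPAR targets (edgeR), first group over second group, in 3 comparisons of diets with 4 tumors each. Points are estimates and bars 95% intervals. Of the 24 intervals only that of Plin2 for MSU-42011 against bexarotene leaves out 0, and its adjusted p was 0.997. Acadm and Acadvl have the narrowest intervals and Angptl4 the widest.

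Compared at the same dose and time, the agonists thus did not separate on any of the 8 targets once adjusted over all genes. The agonists were compared on 8 genes, with exact permutation p between 0.114 and 0.914, where 0.0286 is the smallest such a design can give. MSU-42011 had the higher edgeR estimate for Plin2, Cd36, Acadvl and Acadm, and bexarotene for Pdk4, Fabp3, Cpt1a and Angptl4. The direction was not stable for Angptl4, for which 15 of 22 alternatives kept it and the mean log2 level was 0.21 higher with MSU-42011, nor for Acadm, for which 20 of 22 kept it. For Angptl4, Pdk4, Fabp3 and Cd36 the intervals reached beyond a 4-fold difference, and none of the 8 intervals shows that the compounds act alike.

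Single tumors stood out over several targets at a time. Control replicate 2 was among the 3 highest tumors for 7 of the 8 targets, all but Fabp3, and had the highest Angptl4 and Acadm without any agonist. Bexarotene replicate 1 had the highest Pdk4 and Cpt1a and the second highest Angptl4, but the lowest Plin2. MSU-42011 replicate 3 had the highest Plin2 and Acadvl. Bexarotene replicate 4 had a median rank of 10 among the 12 tumors, while its Cd36 ranked 3.

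Correlations between the targets were computed over the 12 tumors. Of the 28 pairs, 19 were positively correlated, with a median Pearson r of 0.18. The highest was between Plin2 and Cd36, at r = 0.71 (permutation p = 0.0103, adjusted p = 0.224 over 28 pairs) and Spearman rho = 0.62 (permutation p = 0.0346, adjusted p = 0.395). It was 0.59 without the 2 tumors farthest from the median of Plin2. Angptl4 and Cpt1a had r = 0.67 (permutation p = 0.016, adjusted p = 0.224) and rho = 0.48 (permutation p = 0.116, adjusted p = 0.395). Without control replicate 2 and bexarotene replicate 1 this fell to 0.37, so it rested in good part on those tumors. Pdk4 and Cpt1a had r = 0.63 (permutation p = 0.0266, adjusted p = 0.249) and rho = 0.52 (permutation p = 0.0842, adjusted p = 0.395), and r = 0.39 without bexarotene replicate 1. No pair passed the adjustment. The lowest r was -0.54, between Pdk4 and Plin2, and Plin2 also ran against Cpt1a at -0.39.

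With the mean of each diet group removed, the relation of Angptl4 and Cpt1a was closer, at r = 0.91 over the 12 tumors. An exact permutation of tumors within groups, added after the data were seen, gave p = 0.000289 and an adjusted p of 0.0081 over the 28 pairs. It was the only pair of the 28 that passed in this form. The value was 0.77 without control replicate 2 and bexarotene replicate 1, and 0.86 without bexarotene replicate 1 alone. Here, and for Cpt1a and Acadm below, the group means stayed those of all 4 tumors when tumors were left out. The tumors left in such a group can therefore share an offset. In control tumors Angptl4 and Cpt1a were both highest in replicate 2, in MSU-42011 tumors both in replicate 3, and in bexarotene tumors both in replicate 1. Cpt1a and Acadm had r = 0.61 with group means removed (adjusted permutation p = 0.44), and 0.82 without bexarotene replicate 1.

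**Figure D3:**
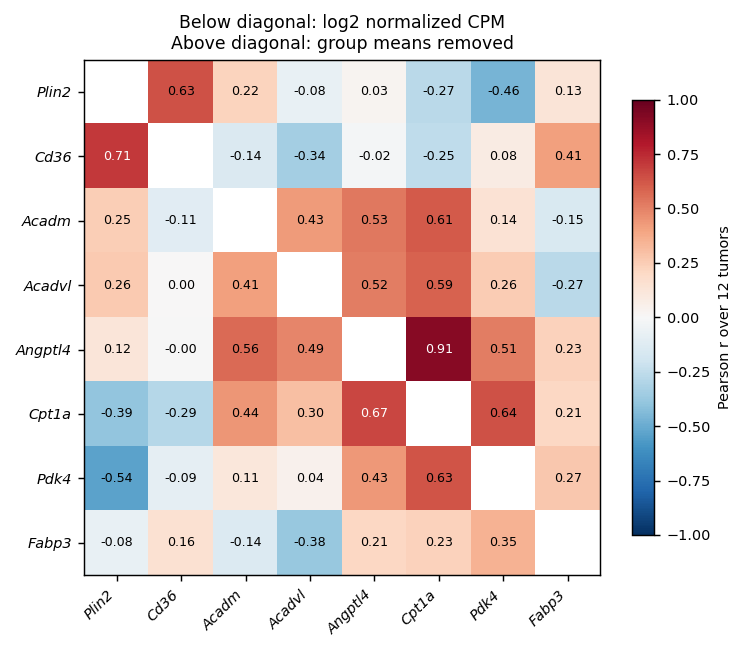
Pearson r between the 8 PPAR targets over 12 tumors, on log2(normalized CPM + 0.5). Cells below the diagonal use the values as they are, and cells above it use values with the mean of each diet group removed. Plin2 with Cd36 (0.71) is highest below the diagonal and Angptl4 with Cpt1a (0.91) above it.

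The genes whose pattern over the 12 tumors was most like each target were looked up among all tested genes, as a description without a test. They were picked for the highest r, so a high r and shared high or low tumors follow in part from the choice. For Angptl4 they were Tmprss4 (r = 0.93), Snn (0.93) and Rxra (0.92). Rxra, which encodes an RXR, the receptor on which the agonists act, was at 80.8, 118, 81.1 and 84.2 normalized CPM in the control tumors, 72.8, 74.5, 126 and 70.8 with MSU-42011 and 103, 58.6, 73.0 and 64.4 with bexarotene. The 3 tumors with the most Angptl4 were also the 3 with the most Rxra, in each diet group 1. Of these, bexarotene replicate 1 and MSU-42011 replicate 3 had the highest macrophage marker sums, 2405 and 861 normalized CPM. They also had the highest endothelial sums, 521 and 258. Control replicate 2 had a macrophage sum of 675, below the 781 of control replicate 1, and the lowest endothelial sum, 97.3. The part of cell mixture in this match was not tested. The r was 0.90 without control replicate 2 and bexarotene replicate 1, with MSU-42011 replicate 3, also high in both genes, still kept.

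For Cd36 the most similar genes were 4632415L05Rik (r = 0.89), Sftpd (0.89) and Csn2 (0.89). Csn2, the milk protein beta-casein, ranged from 162 normalized CPM in bexarotene replicate 3 to 7428 in control replicate 2. It was also low, at 580, in control replicate 3, and these 2 replicate 3 tumors had the least Cd36. The r with Csn2 was 0.88 without bexarotene replicate 1. As Cd36 and Plin2 are proteins of the milk fat globule in the lactating gland, the milk genes are given beside them. The 10 milk protein and milk fat genes summed to between 27414 and 77076 normalized CPM, and 0 of 10 had a higher estimate than in control with either agonist, with medians of -0.33 for MSU-42011 and -0.66 for bexarotene on the log2 scale. Over all genes 50.3% and 55.3% had a higher estimate. At an unadjusted p under 0.05 there were 0 of 10 and 4 of 10, beside 1.99% and 6.44% of all genes, and 0 were called. The sum of the 10 genes followed Cd36 in some tumors only. Control replicate 2 had the highest sum and Cd36 at 998 normalized CPM. MSU-42011 replicate 3 and bexarotene replicate 3 had near sums, 30791 and 31505, with Cd36 at 909 and 153. The part of the milk genes in the level of Cd36 and Plin2 was not tested.

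The remaining targets had no nuclear receptor among their nearest genes. Acadvl was closest to Abca3 (r = 0.95), Sipa1l3 (0.94) and Arfgap2 (0.93), and Acadm to Rab17 (0.92), Rnf6 (0.89) and Osbpl5 (0.88). Pdk4 was closest to Senp7 (0.92), Tpbg (0.91) and Lix1 (0.89), and Cpt1a to Zscan29 (0.90), Kif21b (0.89) and Tcp11l1 (0.89). The genes near Plin2 included Tax1bp1 (0.88) and Pex2 (0.87), the latter a peroxisome assembly protein. Fabp3 had no gene above 0.84, which was Dusp10, followed by 6030445D17Rik and Ftl1-ps1.

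**Figure D4:**
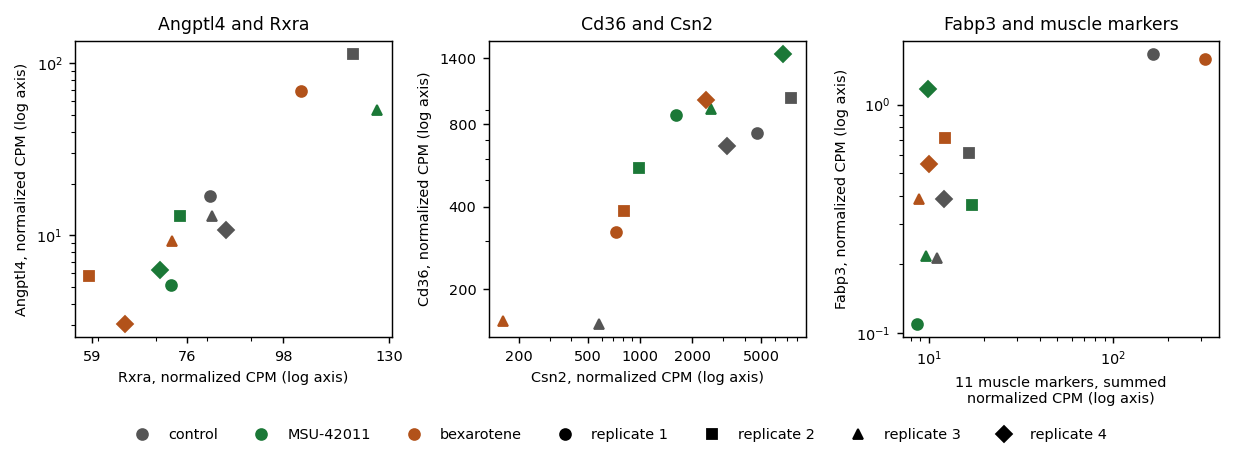
Normalized CPM (log axes) of Angptl4 against Rxra, Cd36 against Csn2, and Fabp3 against the sum of 11 skeletal muscle markers in 12 tumors. Colors are diets and symbols replicate numbers. The 3 tumors highest in Angptl4 are the 3 highest in Rxra, and the 2 tumors highest in muscle markers are the highest in Fabp3.

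The PPAR genes themselves were expressed at unequal levels. Per length, Ppard had a mean of 40.7 FPKM over the 12 tumors, Pparg 0.772 and Ppara 0.426. Ppard was at 69.5 ± 15.1, 67.0 ± 8.62 and 71.1 ± 12.003 normalized CPM (SD, n = 4) with control, MSU-42011 and bexarotene diet. Ppara, the main driver of fat oxidation in liver, was at 0.49 ± 0.13, 0.65 ± 0.24 and 0.78 ± 0.26, and Pparg, the adipocyte form, at 0.89 ± 0.51, 0.63 ± 0.16 and 1.16 ± 1.42. The highest Pparg value, 3.28 normalized CPM, was in bexarotene replicate 1, and the other 3 bexarotene tumors were between 0.38 and 0.55. The log2 fold changes of Ppara were 0.42 (SE 0.40) for MSU-42011 and 0.69 (SE 0.39) for bexarotene against control, and those of Ppard were -0.05 (SE 0.17) and 0.03 (SE 0.17). Of 14 tested PPAR, RXR and cofactor genes, 0 were called in any comparison. The coactivators Ncoa1 and Ncoa2 and the corepressor Ncor1 were higher in all 4 MSU-42011 tumors than in all 4 controls, by 0.17, 0.22 and 0.16 on the log2 scale. The lowest MSU-42011 tumor was at 60.9, 47.99 and 128.93 normalized CPM. The highest control was at 59.3, 47.5 and 128.87, so the margins were narrow. Such a separation was seen for 1.97% of all genes, and none of the 3 was called.

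Other genes of fatty acid use were not called either. Of 20 tested genes of the carnitine shuttle and beta-oxidation, 0 were called in either direction in any comparison, and the median log2 fold change was -0.06 for MSU-42011 and -0.11 for bexarotene against control. With bexarotene 4 of 20 had a higher estimate, beside 55.3% of all tested genes. Hadh, the hydroxyacyl-CoA dehydrogenase, had -0.20 (SE 0.09), and Hadha, a subunit of the trifunctional protein, had -0.30 (SE 0.15) with bexarotene. Acad11, an acyl-CoA dehydrogenase, had -0.27 (SE 0.18). Of 18 peroxisomal genes 0 were called, with medians of 0.02 and 0.01. Among them Acaa1a, a thiolase, had -0.19 (SE 0.11) for MSU-42011 and -0.26 (SE 0.11) for bexarotene.

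Of 11 tested genes of fatty acid uptake and activation 0 were called, with medians of 0.05 for MSU-42011 and 0.20 for bexarotene against control. Acsl3, an acyl-CoA synthetase of the lipid droplet, was at 26.3, 35.3 and 37.3 normalized CPM on average in control, MSU-42011 and bexarotene tumors, with log2 fold changes of 0.42 (SE 0.20) and 0.50 (SE 0.20) against control. Fabp5, a binding protein that delivers ligands to Ppard, was at 62.3, 68.7 and 124 normalized CPM, with 0.14 (SE 0.50) and 0.99 (SE 0.50). Acsl1, another synthetase, had 0.10 and -0.25 (SE 0.14 each). The groups overlapped for these 3 genes, and their smallest edgeR adjusted p was 0.762.

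Of 12 tested genes of ketone bodies, pyruvate dehydrogenase kinases and uncoupling 0 were called. Bdh1, the beta-hydroxybutyrate dehydrogenase, was at 5.13 normalized CPM in control tumors on average, 2.51 with MSU-42011 and 3.03 with bexarotene. Its log2 fold changes against control were -1.04 (SE 0.35) and -0.76 (SE 0.34), and all 4 bexarotene tumors were below all 4 controls, a separation seen for 2.03% of all genes. Acacb, which makes the inhibitor of Cpt1a, had 0.21 and 0.32 (SE 0.19 each). Of 9 tested droplet proteins and lipases 0 were called, with medians of -0.10 and -0.14. Lipe, hormone-sensitive lipase, had -0.23 and 0.09 (SE 0.18 each), and G0s2, an inhibitor of the lipase Pnpla2, had 0.35 and 0.77 (SE 0.44 each). Plin5, a droplet protein of oxidative tissues, had -1.07 (SE 0.88) and -1.31 (SE 0.89). Its counts were low, with 51 in control replicate 2 the highest. Bexarotene replicate 2 with 1 count and MSU-42011 replicate 2 with 2 counts were below the floor of 3 counts.

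**Figure D5:**
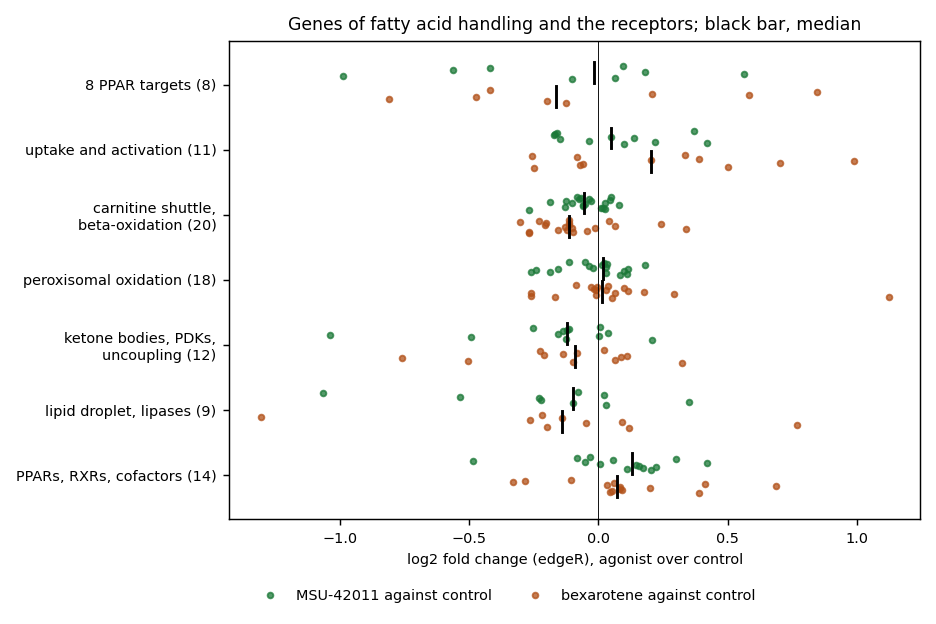
Log2 fold changes (edgeR) of each agonist over control for the 8 PPAR targets and for the tested genes of 6 other lists, with the number of genes in parentheses. Points are genes and black bars medians. The medians lie between -0.16 and 0.20, and no gene shown was called.

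Fat cells in the samples could carry several of these transcripts, so their markers are given beside the targets. Adipoq and Plin1, which define adipocytes, were at 0 counts in 7 of 12 tumors each, and Lep in 10 of 12. Other markers of the list, which cells other than adipocytes can express, were at 0 in no tumor, with Fabp4 at 12.1 to 76.3, Lipe at 14.3 to 24.03 and Adig at 8.56 to 36.2 normalized CPM. The highest Adipoq value was 1.25 normalized CPM, in bexarotene replicate 1. The 11 adipocyte markers summed to 49.3 to 88.0 normalized CPM in control, 38.5 to 71.0 in MSU-42011 and 45.1 to 188 in bexarotene tumors, the last value being that of replicate 1, which had the highest Cpt1a and Pdk4. Of 5 tested adipocyte markers 0 were called. For MSU-42011 against control 0 of 5 had a higher estimate (median log2 fold change -0.23), beside 50.3% of all genes. For bexarotene against control 4 of 5 did (median 0.38), beside 55.3%. For MSU-42011 against bexarotene 0 of 5 did (median -0.85), beside 45.1%. Car3 had the lowest estimates with MSU-42011, at -3.22 (SE 1.89) against control and -4.31 (SE 1.95) against bexarotene. Its raw counts, replicates 1 to 4, were 187, 5, 73 and 66 in the control tumors and 1, 29, 0 and 4 in the MSU-42011 tumors. In the bexarotene tumors they were 1009, 16, 1 and 0, so the estimate against bexarotene rested on replicate 1. Fabp4 had 0.70 (SE 0.45) for bexarotene against control, where replicate 1 held the 76.3 normalized CPM. Hypoxia also acts on Angptl4 and Plin2 in many tissues. The 12 hypoxia response genes summed to 1041 to 2043 normalized CPM in control, 816 to 1405 in MSU-42011 and 852 to 1670 in bexarotene tumors, with 0 called. Egln3 alone made up 340 to 1085 of these sums. Against control, 1 of 12 had a higher estimate with MSU-42011 (median -0.29), beside 50.3% of all genes. With bexarotene 4 of 12 did (median -0.11), beside 55.3%. Ndrg1 was at 121, 54.5 and 50.4 normalized CPM on average in control, MSU-42011 and bexarotene tumors, with overlapping groups. The part of fat cells or hypoxia in the levels of the targets was not tested.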

How the data were processed

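RNA of 12 mammary tumors was poly(A) enriched and sequenced. The authors deposited raw read counts per gene as whole numbers, and the authors' FPKM values, which equal the count divided by the tumor's total and by a gene length. The submitters' processing notes name STAR 2.6.1d, featureCounts 1.5.0-p3 and DESeq2. The genome build and strand setting are not given in the sources used here. Coordinates of 6 of the 8 genes equal those of GENCODE M21 on GRCm38. Groups were taken from the labels. The methods describe 4 mice per group, and the labels give each tumor its own number. In a check of the counts no replicate pair agreed within sampling noise.

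Counts were scaled by TMM, filtered with filterByExpr and tested with edgeR 4.0.16 (quasi-likelihood, 1 model of 12 tumors with group means, Benjamini-Hochberg over 15504 genes, threshold 0.05) in R 4.3.3. Exact two-sided permutation tests and correlations used log2(normalized CPM + 0.5), with 100000 resamples for correlations. DESeq2 1.42.0 and limma 3.58.1 on log2(FPKM + 1 or 0.1), other scalings and filters, a replicate block, fits of 2 groups and leaving out each tumor were alternatives. The test scripts were tested on simulated data. The 8 genes and the lists were chosen with earlier results of these data known. Genes named are the 8 targets, the 3 genes most like each, PPAR and Rxra genes, and up to 3 genes of each list with the smallest p among the groups. The epithelial and tumor markers, Adipoq, Plin1 and Lep were named outside this rule after their values were seen, and a few genes that the rule names are not reported here. The search for the closest promoter match and the permutation within groups were added after the data were seen. Depth was 16583413 to 25925027 counts per tumor, with a floor of 3 counts that covers counting error only.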

Additional observations from a re-analysis of the deposited data

How the results depend on the processing

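No alternative called any of the 8 targets. Of 520 log2 fold changes under alternatives, 500 kept their direction and 20 changed it, and the smallest adjusted p was 0.465 (edgeR, Plin2, bexarotene against control without bexarotene replicate 4). The median over the targets with a value ranged over alternatives from -0.08 to 0.28 for MSU-42011 against control. It ranged from -0.30 to 0.08 for bexarotene against control and from -0.27 to 0.16 between the agonists. The -0.30 came with a minimum of 10 counts in every tumor, so without Pdk4 and Fabp3. Leaving out 1 tumor at a time, the lowest value for bexarotene against control was -0.27. The replicate numbers gave no sign of pairing the tumors. Deviations from the group means correlated at -0.35 to 0.35 (median 0.045) between same-numbered tumors. Between other-numbered tumors the range was -0.31 to 0.36 (median -0.032). With a replicate block Angptl4 for MSU-42011 against bexarotene changed from -0.18 to 0.25, and it was 0.18 with limma on log2(FPKM + 1), 0.25 with 0.1 added and 0.18 without a filter. The cause was not tested. Leaving out 1 tumor at a time gave this value between -1.43 and 1.67. Against control, Angptl4 ranged from -2.25 to 0.51 for MSU-42011 and from -2.65 to 0.69 for bexarotene. Fabp3 ranged from -1.62 to 0.23 and from -0.36 to 0.99, Acadm from -0.20 to 0.048 and from -0.21 to 0.019, Pdk4 for MSU-42011 from -1.07 to 0.39, and Plin2 for MSU-42011 from -0.033 to 0.24. Acadm between the agonists ranged from -0.071 to 0.10. The number of genes called over the whole table was 0 with edgeR. DESeq2 called 1, 6, 25 and 5 genes for MSU-42011 against control, bexarotene against control, MSU-42011 against bexarotene and among the 3 groups, and 7, 7, 41 and 11 when outliers by Cook's distance were kept. Limma with 0.1 added called 1 gene for bexarotene against control and 1 among the 3 groups, and limma without a filter 1 for bexarotene against control. Leaving out tumors gave 0 to 1 genes in these comparisons, the 1 without MSU-42011 replicate 2. Of the 28 pairs of targets, 1 passed with group means removed against 0 before, by an alternative added after the data were seen. A minimum of 10 counts in every tumor left no value for Pdk4 and Fabp3. Depth limits Fabp3 most, at 2 to 43 counts per tumor.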
